A study of Mus musculus with 2 samples.

Results

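Among mouse embryonic stem cells (mESC, cultured pluripotent cells that self-renew) of a library labelled positive for a MERVL-GFP reporter, 104 cells carried transcripts of the 2-cell-like (2C) state and of primitive endoderm at the same time. They were chosen by measured values: at least 10000 unique molecular identifiers (UMIs, molecules counted) per cell, at least 0.1% of UMIs from 2C genes (Zscan4a to Zscan4f, Sp110, Zfp352, Tmem92, AF067061 and the Usp17l, Tdpoz and Tcstv families), and at least 0.03% from Gata6, Sox17, Pdgfra and Dab2. These dual cells were 104 of the 4403 cells of the positive library with that many UMIs, or 2.36% (95% exact binomial interval 1.93 to 2.85), and 104 of all 8435 cells of the series.

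The study compared 2 groups of 1 library each, MERVL-GFP positive and MERVL-GFP negative, made from mESC that carry a GFP reporter driven by the promoter of the endogenous retrovirus MERVL and an H2B-mIFP label for following cells, per the series text; no treatment is given. The labels give the line as mESC, name no strain, and state neither how cells were separated by the reporter nor whether the line is 1 clone. The positive library held 4603 cells and 138364094 UMIs, the negative library 3832 cells and 156406894 UMIs, with GFP at 205 and 0.454 CPM (counts scaled to the same total in every library or class). The label for batch equals the group, so library and reporter group cannot be told apart. Because each group has 1 library and cells of 1 library are not replicates, no test was run, and all intervals cover counting error only.

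Cultured stem cells pass now and then through a short-lived state marked by genes of the 2-cell stage embryo, where MERVL and the Zscan4 family are transcribed. Primitive endoderm is the epithelium that forms beside the epiblast in the blastocyst. It is set up by the transcription factors Gata6, Sox17, Gata4 and Sox7, receives signals through the receptor Pdgfra, takes up material with the adaptor Dab2 and the Cubn and Amn receptor complex, and lays down a basement membrane of laminin, type IV collagen and Sparc. Parietal endoderm, one of its derivatives, is migratory and secretes large amounts of this matrix.

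The dual cells were compared with 918 cells that passed only the 2C limit (2C-only, endoderm share under 0.03%) and 342 that passed only the endoderm limit (endoderm-only, 2C share under 0.05%). A further 2622 cells were under both (neither), and 417 cells with a 2C share from 0.05% to 0.1% stood in no class. In the negative library 2 of 3824 cells were above the 2C limit and 225 were endoderm-only. None passed both limits, which allows a share of up to 0.0785%, but with 2 cells above the 2C limit this says little about whether the programmes combine there. Near the 2C limit, 17 dual cells lay between 0.1% and 0.12%, and 19 cells that passed the endoderm limit lay just outside, from 0.08% to 0.1%. Near the endoderm limit, 18 dual cells lay between 0.03% and 0.04%, and 38 cells above the 2C limit lay from 0.02% to 0.03%. Both limits thus cut through a continuous spread of cells.

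**Figure D1:**
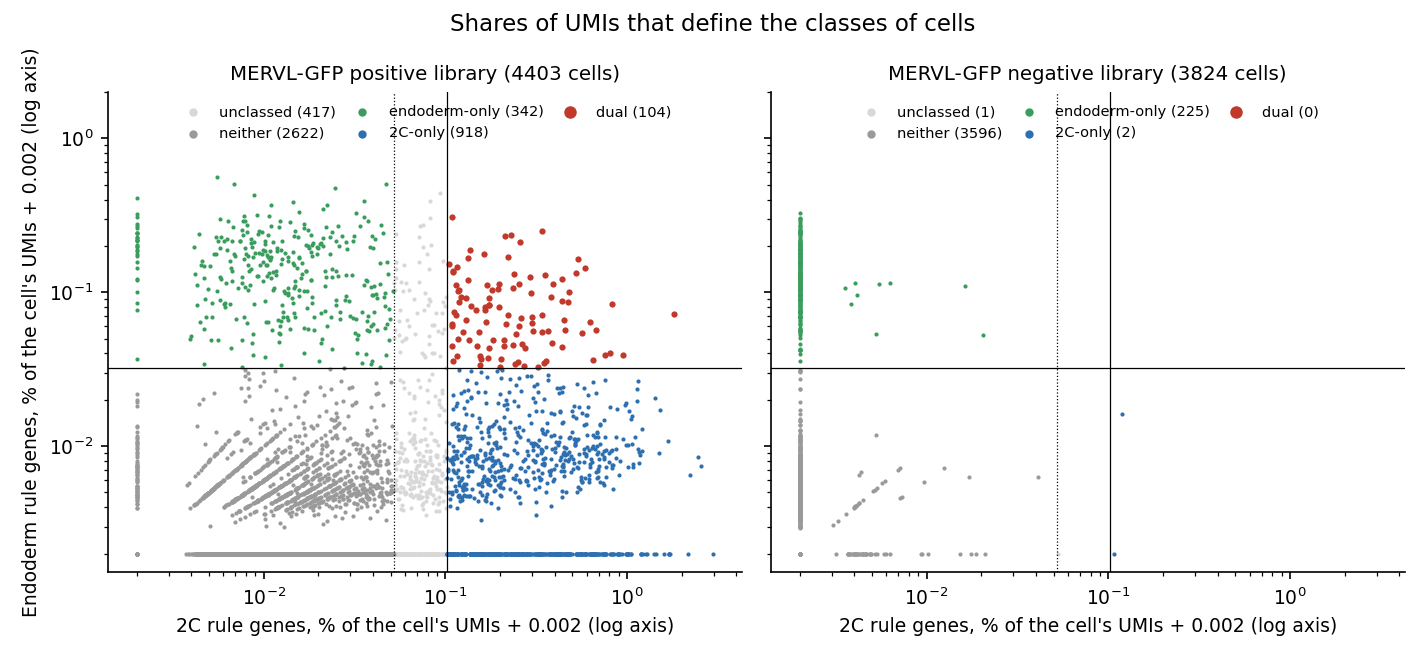
Each point is a cell of the positive library (left, 4403 cells) or the negative library (right, 3824 cells), placed by its percent of UMIs from the 2C rule genes (x) and the endoderm rule genes (y), both plus 0.002 on log axes. Lines mark the limits of 0.1% and 0.03% and the dotted line 0.05%; 104 positive-library and 0 negative-library cells lie in the upper right.

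At 0.03%, the endoderm limit was passed about as often in cells above the 2C limit as in cells without the 2C programme. It was passed by 104 of the 1022 cells above the 2C limit, or 10.2% (8.39 to 12.2), and by 342 of the 2964 cells with a 2C share under 0.05%, or 11.5% (10.4 to 12.7). Both shares are those of the rule, so this describes the choice and does not show that the programmes are independent. Among cells that passed, the median endoderm share was lower in dual (0.0690%) than in endoderm-only cells (0.135%). Median UMIs were 21822.5 above the 2C limit and 32807.5 under 0.05%, and the part of depth was not tested. The counts below use the same limit. Across bands of 2C share the percentage was 11.6 below 0.01%, 11.4 from 0.01% to 0.05%, 14.9 from 0.05% to 0.1%, 11.8 from 0.1% to 0.2% and 13.2 from 0.2% to 0.4%. It was 5.71 (3.47 to 8.77) in the 333 cells above 0.4%, the band with the highest 2C share. In the negative library it was 5.85 (5.13 to 6.64) of the 3812 cells with a 2C share under 0.01%.

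The dual cells had a median of 22472 UMIs and 4252 detected genes. The 2C-only cells had 21757 UMIs and 4770.5 genes, and the endoderm-only cells 33415.5 UMIs and 5744.5 genes, so the dual cells were near the 2C-only cells in depth and had the lowest median number of genes of these classes. Mitochondrial transcripts took a median of 1.93% of UMIs in dual, 2.35% in 2C-only and 1.56% in endoderm-only cells. The reporter transcript was present in 103 of the 104 dual cells. Its median was 368 CPM in dual, 372 CPM in 2C-only and 83.9 CPM in endoderm-only cells, so the reporter transcript was at its 2C-only level in dual cells. Of the dual cells 3 had over 2 times the library's median UMIs, and none of the 3 barcodes shared between the libraries belonged to a dual cell. The doublet caller marked 2 of 4603 cells and did not work on these data, so droplets that held a 2C and an endoderm cell are not removed.

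The values of the rule genes describe how the cells were chosen. Their median 2C share was 0.212% (range 0.103 to 1.80), against 0.263% in 2C-only cells, and their median endoderm share was 0.0690% (range 0.0305 to 0.308), against 0.135% in endoderm-only cells. The endoderm share of dual cells came mostly from Dab2, the endocytic adaptor: of 2150 such UMIs 1583 were Dab2 (73.6%), 366 Gata6, 144 Pdgfra and 57 Sox17. In endoderm-only cells Dab2 gave 42.3% and Gata6 37.9%. With every cell thinned to 10000 UMIs, Dab2 was found in 90.4% of dual and 84.5% of endoderm-only cells. Gata6, the factor that opens the endoderm programme, was found in 46.2% of dual cells (36.3 to 56.2) and 92.1% of endoderm-only cells (88.7 to 94.7), beside 9.15% of 2C-only and 5.84% of neither cells. Sox17 was found in 15.4%, 52.6% and 10.2% of dual, endoderm-only and 2C-only cells. Without thinning, 45.2% of dual and 90.9% of endoderm-only cells had at least 3 of the 4 genes. When Dab2 was left out of the rule, 24 cells, 0.545% of the positive library, still passed both limits.

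The 2C share of dual cells also had another make-up. The Zscan4 family, zinc finger proteins linked to telomere maintenance, gave 25.8% of the 2C rule UMIs in dual and 43.6% in 2C-only cells. Zscan4d stood at 348 CPM in dual and 545 CPM in 2C-only cells, and Zscan4a at 95.4 and 409 CPM. Sp110, a nuclear body protein, stood at 579 and 315 CPM, and the deubiquitinase-like gene Usp17lc at 645 and 329 CPM, the other way round. Members of the Zscan4, Usp17l, Tdpoz and Eif1ad families are near-identical copies, so the level of any one of them is uncertain.

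Among genes that the rule did not use, matrix genes of endoderm and other 2C genes were high in the same cells. Matrix genes (12 basement membrane and 14 collagen processing genes) took a median of 0.654% of UMIs per dual cell, near the 0.721% of endoderm-only cells and above the 0.127% of 2C-only cells. The 43 other 2C genes took 2.18% in dual, 2.30% in 2C-only and 0.144% in endoderm-only cells. Limits were set at the 10th percentile of endoderm-only cells for matrix genes (0.307%) and of 2C-only cells for the other 2C genes (0.610%). Both were reached by 89 of 104 dual cells, or 85.6% (77.3 to 91.7), against 72 of 918 2C-only cells (7.84%), 31 of 342 endoderm-only cells (9.06%) and 5 of 2622 neither cells (0.191%). The endoderm transcription factors outside the rule did not show this: their median share per cell was 0.0104% in dual, 0.00760% in 2C-only, 0.00853% in neither and 0.0557% in endoderm-only cells. Within the 104 dual cells the matrix and other 2C shares were nearly unrelated (Spearman's rho -0.012, a description over cells of 1 library).

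**Figure D2:**
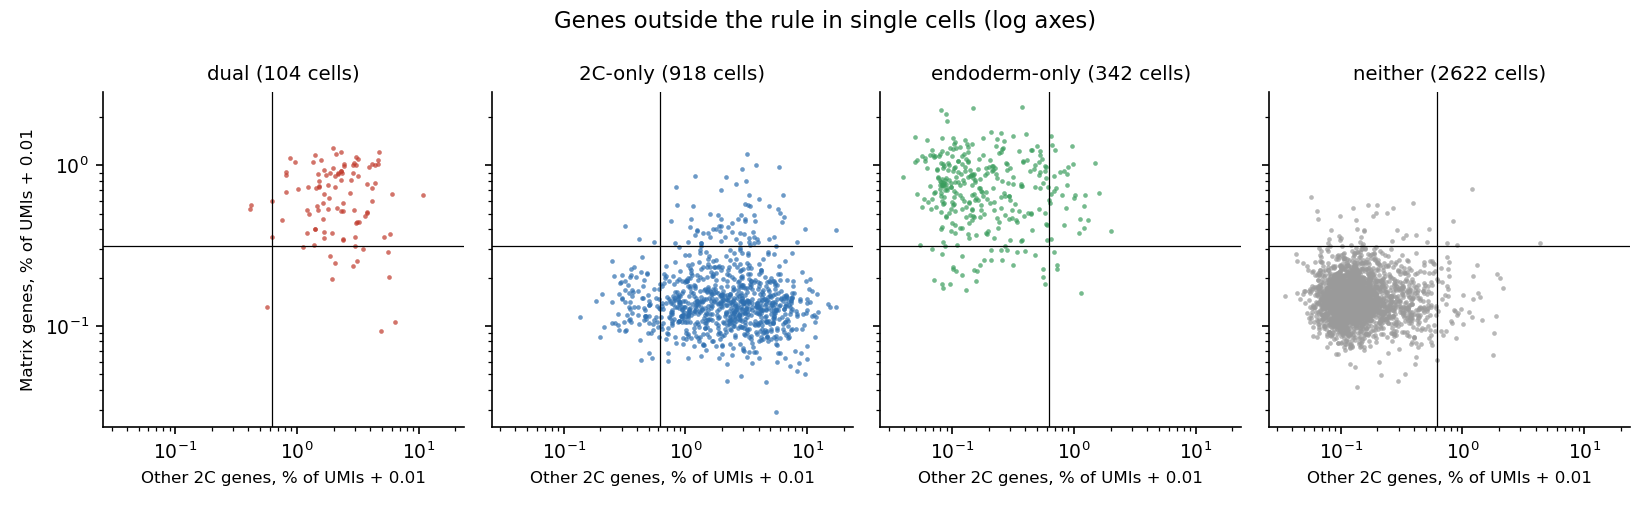
Each point is a cell of the positive library, placed by its percent of UMIs from other 2C genes (x) and from matrix genes (y), both plus 0.01 on log axes, with lines at the 10th percentiles of 2C-only and endoderm-only cells. Of the dual cells 89 of 104 lie in the upper right, and 72 of 918 2C-only cells lie there too.

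For each class the UMIs of its cells were added up and scaled to CPM, and a gene was called where the ratio of CPM + 1 was at least 2. Against 2C-only cells, 321 of 8059 genes were higher in dual cells (3.98%) and 794 lower (9.85%). Against endoderm-only cells, 421 of 7930 genes were higher (5.31%) and 605 lower (7.63%). The median of all genes was -0.23 and -0.31 on the log2 scale. TMM scaling moved these medians to 0.00061 and -0.07 and the counts to 515 higher and 444 lower, and 511 higher and 315 lower, so the surplus of lower genes depends on the scaling, and list medians below are to be read against -0.23 and -0.31. A gene that reached the minimum of 10 CPM in 1 class alone could hardly be called on the other side, so counts are also given for genes at 10 CPM in both classes compared. Of 6744 such genes 224 were higher and 361 lower than in 2C-only cells, and of 6627 such genes 215 were higher and 288 lower than in endoderm-only cells. At a 2C limit of 0.2%, which left 56 dual cells, 1392 and 1467 genes were lower.

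Basement membrane genes were near their endoderm-only levels. All 12 genes of the list were at 10 CPM or more in dual, 2C-only and endoderm-only cells. Against 2C-only cells 7 were higher and 1 lower, beside 3.98% and 9.85% of all genes, with a median log2 ratio of 2.12. Against endoderm-only cells 0 of 12 were called either way, beside 5.31% and 7.63%, with a median of -0.42. Sparc, a matrix protein that binds collagen (chr11:55394500-55423183, build GRCm38), stood at 1801 CPM in dual, 230 in 2C-only, 1403 in endoderm-only and 154 in neither cells. It was 7.82 times its 2C-only level (counting interval 7.51 to 8.14) and 1.28 times its endoderm-only level (1.24 to 1.33). Its median over single dual cells was 1608 CPM, with quartiles of 1018 and 2810.4. The laminin chain Lama1 (chr17:67697259-67822647) stood at 370, 37.5 and 504 CPM in dual, 2C-only and endoderm-only cells, and its partners Lamb1 at 411, 52.6 and 568 and Lamc1 at 569, 121 and 801 CPM. The type IV collagen chains Col4a1 and Col4a2 stood at 507 and 299 CPM in dual cells, against 66.2 and 35.0 in 2C-only cells. Fibronectin, Fn1, was the 1 member that was lower than in 2C-only cells, at 53.1 against 151 CPM.

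Most genes that fold and export collagen were higher in dual than in 2C-only cells. Of 12 genes tested, 8 were higher than in 2C-only cells and 0 lower, beside 3.98% and 9.85% of all genes, with a median of 1.24. Of the 10 at 10 CPM in both classes 7 were higher. Against endoderm-only cells 1 of 12 was lower, near the 7.63% of all genes, and 0 higher. Serpinh1, the collagen chaperone (chr7:99345376-99353239), stood at 508, 40.7 and 644 CPM in dual, 2C-only and endoderm-only cells. This was 12.5 times the 2C-only level (11.4 to 13.6). After thinning, 90.4% of dual, 22.5% of 2C-only and 90.6% of endoderm-only cells had a Serpinh1 UMI. The prolyl hydroxylase subunit P4ha2 stood at 435, 181 and 318 CPM. Kdelr3, which returns proteins to the endoplasmic reticulum, was the member lower than in endoderm-only cells, at 27.7 against 81.2 CPM.

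Genes of uptake were also high in dual cells. In the endocytic group 6 of 10 genes were higher than in 2C-only cells and 0 lower, beside 3.98% and 9.85% of all genes. Their median was 1.39, and of the 8 at 10 CPM in both classes 4 were higher. Against endoderm-only cells 0 of 11 were higher and 1 lower, near the 7.63% of all genes. The median there was -0.53 beside -0.31 over all genes. Cubn, a receptor for vitamin and protein uptake (chr2:13276338-13491813), stood at 50.7, 3.56 and 73.5 CPM in dual, 2C-only and endoderm-only cells, and its partner Amn at 29.7, 2.77 and 48.1 CPM. The cysteine protease Ctsl stood at 1326, 423 and 1707 CPM. Of 15 genes of a yolk sac list 3 were tested and all 3 were higher than in 2C-only cells: the lipid carrier Apoe at 1259.7 against 340 CPM, the homeobox gene Rhox5 at 272 against 118 and the protease inhibitor Spink1 at 86.7 against 22.3. Their endoderm-only levels were 1031, 370 and 53.7 CPM, so the dual level was the highest for Apoe and Spink1 and intermediate for Rhox5, with none called against endoderm-only cells. Srgn, a secreted proteoglycan core protein of the parietal endoderm list, stood at 228, 17.8 and 308 CPM. In that list 5 of 6 genes were higher than in 2C-only cells and 1, Pdpn, was lower, at 2.77 against 12.8 CPM. At 10 CPM in both classes there were 4 genes, and all 4 were higher, beside 3.98% of all genes. Against endoderm-only cells 1 of 7, Snai1, was higher and 2 were lower, both of them under 10 CPM in dual cells.

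The endoderm transcription factors did not share this pattern. Of 8 tested, 0 were higher and 7 lower than in endoderm-only cells, beside 5.31% and 7.63% of all genes, with a median of -2.09. However, 3 of the 7 reached 10 CPM in endoderm-only cells alone and could hardly be other than lower. Of the 5 at 10 CPM in both classes 4 were lower. Against 2C-only cells 2 of 6 were higher and 1 lower, beside 3.98% and 9.85% of all genes. Both higher ones reached 10 CPM in dual cells alone. The median of 0.60 turned to -0.04 at a 2C limit of 0.2% and to -0.73 when the Zscan4 family was left out of the rule. Foxq1, a forkhead factor (chr13:31556134-31560976), stood at 63.8 CPM in dual, 7.11 in 2C-only and 341 in endoderm-only cells. After thinning it was found in 21.2% of dual and 77.2% of endoderm-only cells. Gata4 stood at 12.3, 1.75 and 44.4 CPM in the same order, and Sox7 at 4.75, 0.693 and 27.7 CPM. Gata6, used by the rule, had 145 against 559 CPM. Most matrix, chaperone and uptake genes tested thus stood within a ratio of 2 of their endoderm-only levels, and most regulators tested did not. The cells are named here by their rule and not as primitive endoderm.

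**Figure D3:**
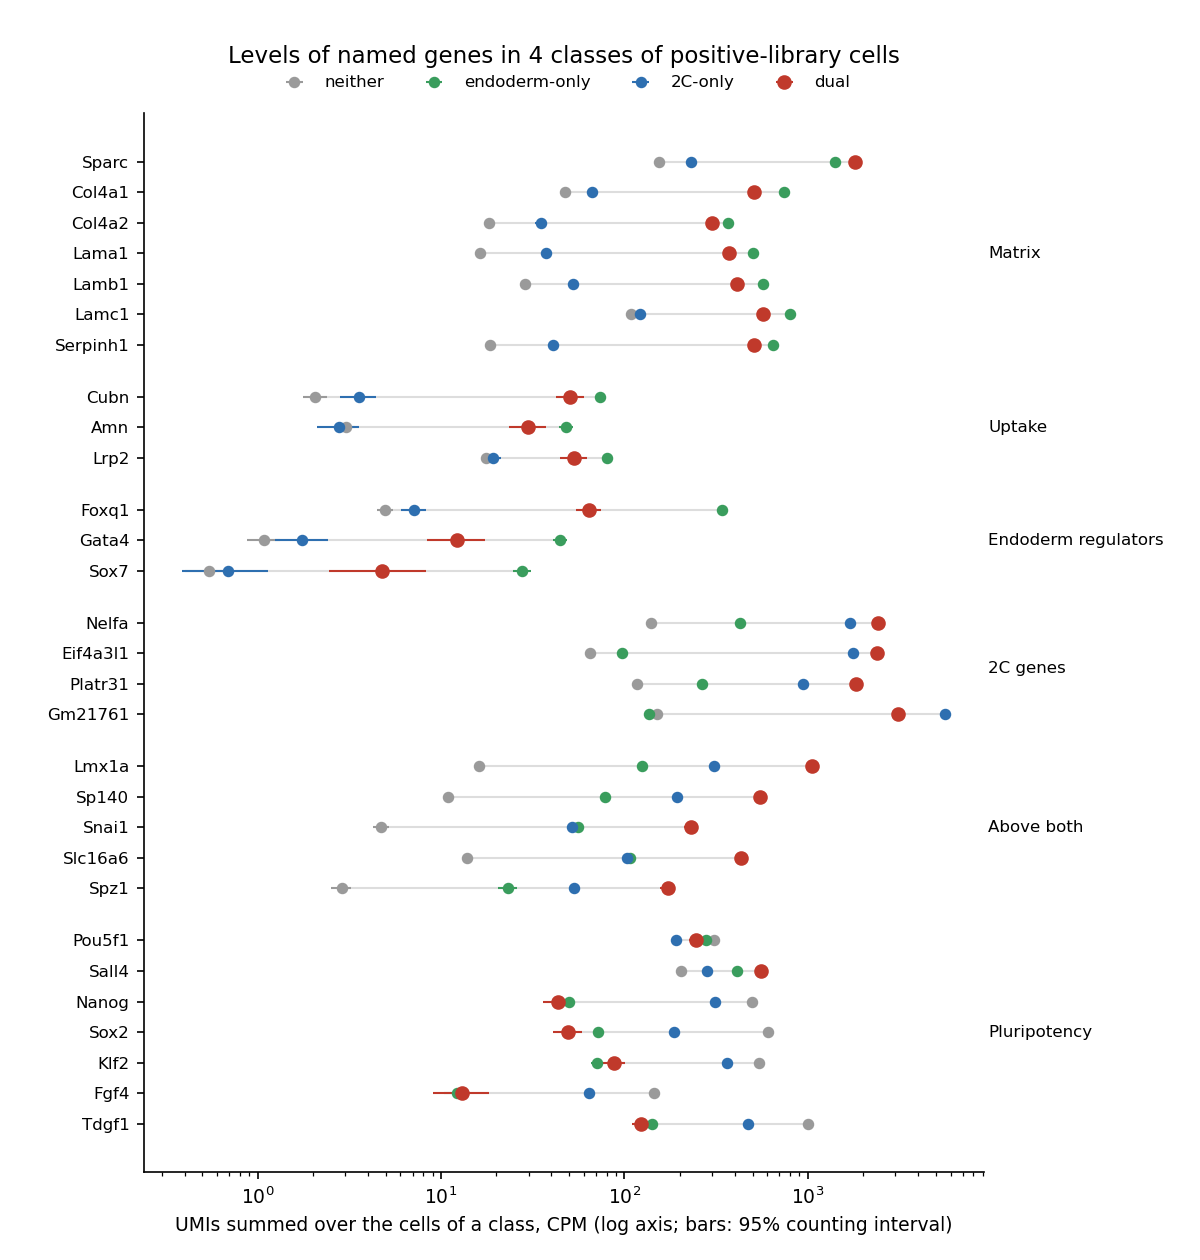
Levels of 29 named genes in CPM on a log axis, from UMIs summed over 104 dual, 918 2C-only, 342 endoderm-only and 2622 neither cells, with 95% counting intervals. Dual cells lie beside endoderm-only cells for matrix genes, between the single classes for endoderm regulators, and beyond both for Lmx1a, Sp140, Snai1, Slc16a6 and Spz1.

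To place the dual cells over many genes, those that differed at least 4-fold between the single classes were put on a log2 scale from 0 (the 2C-only level) to 1 (the endoderm-only level). The 137 genes higher in endoderm-only cells had a median position of 0.55 (order-statistic interval 0.53 to 0.62, quartiles 0.41 and 0.75). The 270 genes higher in 2C-only cells had a median of 0.27 (0.16 to 0.34, quartiles -0.17 and 0.66). Of the first set 2 genes lay beyond each end. Of the second 87 lay beyond the 2C-only end and 17 beyond the endoderm-only end. By list, the median position of genes higher in endoderm-only cells was 0.88 for 7 basement membrane, 0.82 for 6 endocytic and 0.86 for 3 parietal endoderm genes. It was 0.59 for 4 collagen processing genes and 0.42 for 6 endoderm transcription factors outside the rule.

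The other 2C genes were kept as a group, with a shift among members. Against endoderm-only cells 26 of 28 were higher and 1 lower, beside 5.31% and 7.63% of all genes, with a median of 3.47. Of the 20 at 10 CPM in both classes 18 were higher. Against 2C-only cells 3 of 29 were higher and 7 lower, beside 3.98% and 9.85% of all genes, with a median of -0.46. Nelfa, a subunit of the negative elongation factor, stood at 2413 CPM in dual, 1703 in 2C-only and 428 in endoderm-only cells. Eif4a3l1, a helicase-like copy of a splicing factor gene (chr6:136327539-136329983), stood at 2380, 1773 and 97.2 CPM, and the long noncoding RNA Platr31 at 1836, 936 and 263 CPM. Others were lower than in 2C-only cells. Gm21761 stood at 3106 against 5624 CPM, and Eif1ad7 at 575 against 1491. The Pramel family, leucine-rich repeat proteins of germ cells and early embryos, was lower than in 2C-only cells in 7 of 12 genes tested and higher in 0. Over all genes these shares were 9.85% and 3.98%. Of the 12 Pramel genes, 6 reached 10 CPM in 2C-only cells alone. Of the 6 at 10 CPM in both classes 3 were lower, such as Pramel31 at 32.9 against 135 CPM, and Pramel17 stood at 77.2 against 44.9 CPM. Dppa3 (Stella, a maternal factor, chr6:122626410-122630272) stood at 11.5, 119 and 36.5 CPM, lower in dual cells than in either single class.

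Most pluripotency genes were near their endoderm-only levels. Of 19 tested, 10 were lower and 1 higher than in 2C-only cells, beside 9.85% and 3.98% of all genes, with a median of -1.05. Of the 17 at 10 CPM in both classes 8 were lower and 1 higher. Against endoderm-only cells 3 of 18 were lower and 0 higher, beside 7.63% and 5.31% of all genes. Nanog, the factor that opposes Gata6 in the epiblast, stood at 43.6 CPM in dual, 310 in 2C-only, 49.8 in endoderm-only and 497 in neither cells. A Nanog UMI was found after thinning in 26.9% of dual and 72.3% of 2C-only cells. Sox2 stood at 49.1, 187, 72.1 and 610 CPM in the 4 classes, and the naive factor Klf2 at 87.9, 364, 70.6 and 543 CPM. Fgf4, the ligand through which epiblast cells induce endoderm, stood at 13.1, 64.4, 12.3 and 145 CPM, and the Nodal co-receptor Tdgf1 at 123, 473, 142 and 1006 CPM. Pou5f1, required in both epiblast and early endoderm, did not follow them, at 245, 191, 279 and 308 CPM. Sall4, a zinc finger factor of both lineages, was at its highest in dual cells, at 557, 282, 410 and 202 CPM, though its ratio to 2C-only cells of 1.98 (1.86 to 2.10) stayed under the limit of 2. Klf5 and Tbx3 were near their 2C-only levels, 292 against 235 and 283 against 288 CPM, under 725 and 676 CPM in endoderm-only cells.

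Genes beyond both single classes were few. Of 8501 genes, 141 were at least 2 times above both (1.66%) and 125 at least 2 times below both (1.47%). Of the 125, 85 were under 10 CPM in dual cells and had passed the filter only through the single classes, and of the 141, 35 were under 10 CPM in both single classes. Among the 6460 genes at 10 CPM in all of these classes, 75 were above both and 40 below both. Of the 141, 132 were higher in 2C-only than in endoderm-only cells, and 139 had their lowest level in neither cells. With Dab2 left out of the rule 50 genes were above both, 22 of them shared with the 141. That setting cut the dual class to 24 cells and moved the other 80 into the 2C-only class it is compared with. When the 24 cells were set against the unaltered single classes, an alternative chosen after the values were seen, 64 genes were above both, 34 of them shared. Snai1, a repressor of epithelial genes that is active in parietal endoderm (chr2:167538195-167542814), stood at 230 CPM in dual, 51.6 in 2C-only, 55.9 in endoderm-only and 4.72 in neither cells. This was 4.45 times the 2C-only level (4.02 to 4.92) and 4.11 times the endoderm-only level (3.67 to 4.60). A Snai1 UMI was found after thinning in 71.2%, 26.7%, 36.5% and 4.65% of the cells of the 4 classes. In the negative library Snai1 was at 17.6 CPM in endoderm-only and 0.968 in neither cells.

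Lmx1a, a LIM homeobox factor, stood at 1051, 308, 125 and 16.1 CPM in dual, 2C-only, endoderm-only and neither cells, and its median over single dual cells was 1021 CPM against 86.8 in 2C-only cells. The transporter Slc16a6 (chr11:109450855-109473598) stood at 434, 103, 107 and 13.9 CPM, and Echdc3, of the enoyl-CoA hydratase family (chr2:6188465-6213033), at 383, 96.7, 19.0 and 4.70 CPM. Atpsckmt, a lysine methyltransferase of the ATP synthase (chr15:31601852-31621227), stood at 927, 239, 190 and 19.6 CPM. Sp140, a nuclear body protein, stood at 545, 193, 78.2 and 10.9 CPM, and Spz1, a leucine zipper factor of the testis, at 172, 53.2, 23.2 and 2.87 CPM. The log2 ratios of Lmx1a and Sp140 to 2C-only cells were 1.77 and 1.49 in all dual cells. In the 24 cells that pass without Dab2, against the same 2C-only class, they were 1.25 and 0.52, so that Lmx1a stayed past the limit of 1 and Sp140 did not. Echdc3 also fell short there, at 0.76, while Snai1 was at 1.74, Slc16a6 at 1.72, Spz1 at 1.36 and Atpsckmt at 1.18. With the 80 other dual cells counted as 2C-only, the ratios of Lmx1a and Sp140 were 0.96 and 0.28. The 10 genes most above both were Snai1, Slc16a6, Echdc3, Atpsckmt, the uncharacterised Gm13962, Gm48155, Gm19434, Gm16243 and 4930584F24Rik and the secreted protein gene Sva. Lmx1a, Sp140 and Spz1 were above both but not among these 10. Gm48155 is uncertain: its log2 ratio to 2C-only cells turned to -0.62 without Dab2 in the rule and to -0.044 in the 24 cells against the unaltered 2C-only class. Gm13962, Gm19434 and Gm16243 are annotated as antisense, and since the strand setting of the counting is not stated their reads cannot be told from those of the genes opposite. Lmx1a, Slc16a6, Echdc3, Atpsckmt, Sp140 and Spz1 were highest in dual and lowest in neither cells.

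The genes below both were at low levels, with a median of 6.34 CPM in dual cells, and their number depended on scaling: 39 with TMM. Dppa3, the Polycomb gene Scml2 (2.38, 22.9 and 10.6 CPM in dual, 2C-only and endoderm-only cells), the cytokine signalling inhibitor Socs1 (4.36, 18.9 and 15.4 CPM) and the Notch target Hes1 (8.32, 24.6 and 31.9 CPM) were among the 10 most below both.

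**Figure D4:**
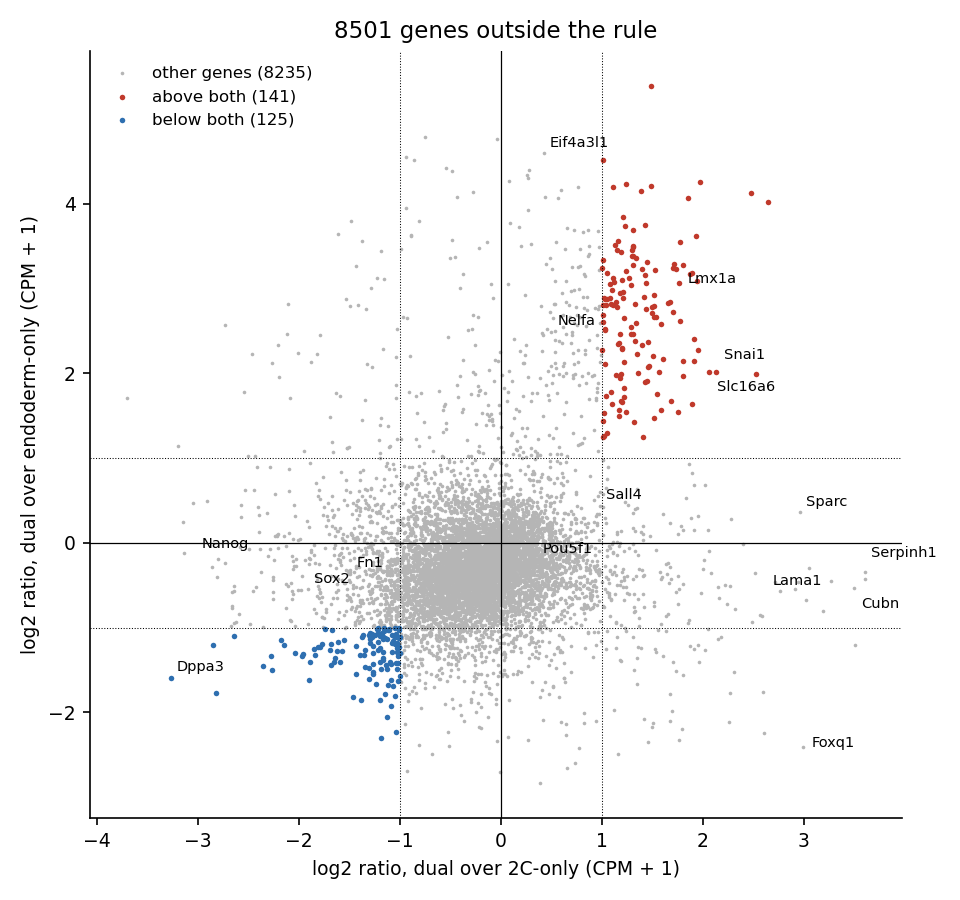
Each point is 1 of 8501 genes outside the rule, by its log2 ratio of CPM + 1 in dual over 2C-only cells (x) and over endoderm-only cells (y); dotted lines mark a ratio of 2. Red marks 141 genes above both, blue 125 below both; matrix genes such as Serpinh1 and Lama1 lie far right near the zero line of y, and Nanog far left near it.

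Across the 1022 cells above the 2C limit, the dual cells continued a gradient. With 414, 372, 132, 42, 43 and 19 cells in bands of rising endoderm share, Sparc stood at 144, 196, 593, 1474, 1754 and 2551 CPM. The last 3 bands are the dual cells. Serpinh1 went from 19.5 to 715 CPM, at 124 CPM in the band just under the limit. Snai1 stood at 33.2, 44.2, 130, 233, 218 and 249 CPM, so it was level across the dual bands and intermediate just under the limit. Nanog stood at 345, 309, 209, 68.6, 24.6 and 37.4 CPM, while Pou5f1 stayed between 183 and 262 CPM. The 2C rule genes, which only describe the choice, did not move as one. Zscan4a stood at 452, 388, 346, 138, 54.7 and 104 CPM, and Usp17la at 393 in the first band and 62.3 in the last. Zscan4d went from 566 to 399 CPM. Sp110 stood at 325, 292, 358, 421, 725 and 557 CPM, and Usp17lc at 307, 307, 468, 764, 599 and 513 CPM. The median 2C share did not fall as steeply, from 0.260% in the first band to 0.194% in the 5th and 0.218% in the 6th.

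**Figure D5:**
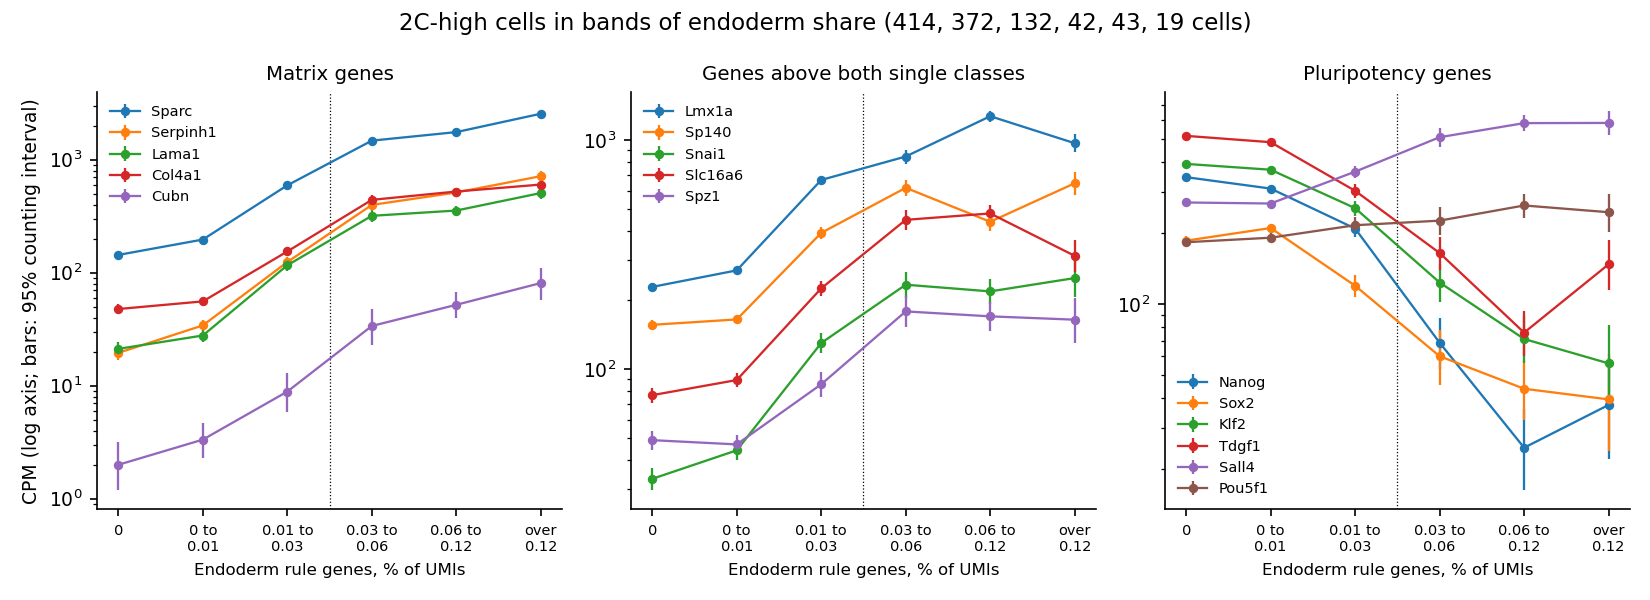
CPM (log axis) with 95% counting intervals in cells above the 2C limit, in 6 bands of endoderm rule share holding 414, 372, 132, 42, 43 and 19 cells; the dotted line marks the limit of 0.03%. Matrix genes, Lmx1a, Sp140, Snai1, Slc16a6 and Spz1 are higher and Nanog, Sox2, Klf2 and Tdgf1 lower right of the line, and Pou5f1 is nearly level.

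Along the other axis, the 508 cells above the endoderm limit were ordered by 2C share, in bands of 163, 179, 62, 48 and 56 cells. Regulators outside the rule were lower in each band with a higher 2C share: Foxq1 at 423, 263, 142, 89.4 and 33.6 CPM, Gata4 at 56.0, 33.4, 18.3, 14.7 and 9.47, and Sox7 at 35.6, 20.1, 7.75, 7.33 and 1.72. The median endoderm rule share was lower along the same bands too, at 0.163%, 0.108%, 0.0798%, 0.0780% and 0.0617%. Its part in these levels was not tested. Gata6 went from 641 to 113 CPM while Dab2 stayed between 576 and 686 CPM, but all these cells were chosen on the sum that holds both genes, so their levels only describe the choice. Matrix genes differed among themselves along this axis. Sparc was at 1365, 1440.1, 1602, 1593 and 2045 CPM. Col4a1 was lower in each band than in the one before, at 760, 718, 690, 550 and 457 CPM. Lamc1 stood at 789, 813, 778, 609 and 523 CPM, and Serpinh1 at 705, 585, 612, 510 and 506 CPM. Lama1, Lamb1 and Col4a2 too were lower in the last band than in the first. As a sum, basement membrane genes took 0.477% of UMIs in the first band and 0.450% in the last, collagen processing genes 0.258% and 0.205%, and the endoderm transcription factors outside the rule 0.0774% and 0.0127%. Lmx1a stood at 34.1, 212, 531, 804 and 1342 CPM, and Snai1 at 27.9, 82.7, 154, 207 and 257, both higher in each band than in the one before. Klf5 went from 796 to 257 CPM and the DNA methyltransferase Dnmt3b from 408 to 99.9 CPM. Median UMIs per cell went from 33997 to 20618 across the same bands; the part of depth in these differences was not tested, and CPM is scaled for it.

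The dual cells were also split by the rule genes other than Dab2. In 24 of them Gata6, Sox17 and Pdgfra alone reached 0.03%, and in 80 they did not, a split made after the values were seen. Gata6, which made the split, stood at 404 and 53.6 CPM, and the median 2C share was 0.149% and 0.230%. Both sets held regulators outside the rule. These took 0.0198% and 0.0161% of UMIs, above the 0.0101% of 2C-only and 0.0105% of neither cells and well under the 0.0649% of endoderm-only cells. Foxq1 stood at 79.1 (59.0 to 104) and 58.4 CPM (47.9 to 70.4), Gata4 at 16.7 (8.35 to 29.9) and 10.7 CPM (6.54 to 16.5), with overlapping intervals. Sox7 stood at 13.7 (6.26 to 26.0) and 1.61 CPM (0.331 to 4.69), an interval that holds its 2C-only level of 0.693 CPM. Of 5059 genes outside the rule and the matrix lists, 132 were at least 2 times higher in the 24 cells (2.61%) and 123 lower (2.43%). Sparc stood at 1466 and 1919 CPM, Lama1 at 350 and 378, and Snai1 at 175 and 249 CPM, so matrix genes were high in both sets. Of the genes above both single classes, 118 could be compared, and 43 were at least 2 times lower in the 24 cells and 0 higher. Those genes were chosen on all dual cells, most of whose UMIs come from the 80, so a lower level in the 24 is partly built into the choice and the count is a description. Lmx1a stood at 734 and 1163 CPM and Sp140 at 277 and 640 CPM.

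Cells that the rule left out showed the same association. Of the 918 2C-only cells, 75 had a matrix share at or above 0.307%, and 843 were under it; this split too was made after the values were seen, and it used matrix genes. The class itself was cut by the rule genes, at an endoderm share under 0.03%. Within it the median endoderm share was 0.0110% in the 75 cells and 0.0027% in the 843, so the 75 lay nearer the limit. Their median 2C shares were 0.207% and 0.268% and their median UMIs 19085 and 22184. Of 7980 genes outside the rule and the matrix lists, 323 were at least 2 times higher in the 75 cells (4.05%) and 731 lower (9.16%). Of the 141 genes above both single classes, 134 could be compared: 124 were at least 2 times higher in the 75 cells, 0 were lower, and the median log2 ratio was 1.50. Snai1 stood at 274 against 32.7 CPM, Lmx1a at 1152 against 236 and Slc16a6 at 411 against 77.0. Nanog stood at 56.4 against 332 CPM and Dppa3 at 3.52 against 129. Gata6 stood at 24.1 and 11.2 CPM, Dab2 at 81.1 and 13.1 and Pdgfra at 22.9 and 4.41, levels that the class limit holds down. Sox17, the other rule gene of endoderm, went the other way, at 4.11 (1.65 to 8.47) and 11.2 CPM (9.76 to 12.7). The genes above both were chosen on dual cells against a class that includes these 75, so their count is a description. High matrix genes, high Snai1 and Lmx1a, and low Nanog thus also occurred together in 2C cells under the endoderm limit.

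Marker lists of other cell types took small shares of UMIs, and the genes named here are not all of their members. The trophoblast list took 0.00333% of UMIs in dual cells and 0.00485% to 0.00675% in the other 3 classes, with Cdx2, Elf5 and Gata3 at 0 UMIs in dual cells. Of its other members 1 reached 10 CPM in both dual and 2C-only cells, with a log2 ratio of -0.30 to 2C-only cells. The fibroblast list took 0.000594% in dual and up to 0.00199% in the others. Col3a1, Dcn, Lum, Postn and Pdgfrb were at 0 UMIs, and Col1a1 and Col1a2 had 1 UMI each in all dual cells together. In the mesendoderm list, which took 0.00139%, T, Mixl1, Gsc, Cer1 and Lhx1 were at 0 UMIs. Another member reached 10 CPM in both dual and 2C-only cells, with a log2 ratio of -1.31 to 2C-only cells. Of simple epithelial genes, 1 of 9, Krt8, was higher than in 2C-only cells and 0 lower, with a median of -0.02, beside 3.98% and 9.85% of all genes. Against endoderm-only cells 3 of 8 were lower, beside 7.63%, and 0 higher, with a median of -0.75. Krt8 stood at 50.3, 23.3 and 92.6 CPM in dual, 2C-only and endoderm-only cells, and Epcam at 46.7, 87.7 and 102 CPM.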

How the data were processed

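Single cells of 2 libraries were measured, 1 per reporter group. The deposited files of the authors hold raw counts for 55415 features in each cell. They are read here as UMIs, judging by barcodes of 16 bases and the single-cell source; whether molecules were counted is not said. FastQC 0.11.2, Trim Galore 0.6.4, STAR 2.7.6a and mm10 are named per the submitters' processing notes. Cell calling and strand are not given in the sources used here, and the extraction text describes a bulk RNA kit. Loci are from GENCODE M21 (GRCm38), with 52133 of 55414 gene IDs matched.

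The members, the gene lists and the rules were chosen with earlier results of these data known. Cells with at least 10000 UMIs were classed by the 2 shares, so 200 positive-library and 8 negative-library cells were left out. UMIs of a class were added and scaled to CPM. Ratios are of CPM + 1, which understates changes of low genes. Tested genes were outside the rule, with at least 10 CPM in a class and 50 UMIs in total, and the size rule called a ratio of at least 2. Shares of cells with a UMI come from cells thinned without replacement to 10000 UMIs. Intervals are at 95%: exact Poisson for levels, Clopper-Pearson for shares and exact conditional for ratios. PCR copies without identifiers would not be independent. For a share of 0, the upper limit is 3 counts.

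Named genes are members of the lists for 2C, endoderm, pluripotency, FGF signalling and other cell types, and the 10 genes furthest in each direction against each single class and beyond both, with the same direction under TMM, mean of cell CPM and thinning. The rule genes and the genes shown by bands were chosen after their values were seen. Scrublet (scanpy 1.11.5) was run, and doublets remain. Alternatives changed the limits, the rule genes, the cell filters, the scaling (TMM, edgeR 4.0.16 in R 4.3.3), the pseudocount, the filter and the ratio. On simulated counts for dual against 2C-only cells, 200 of 55415 genes were changed 4-fold. The size rule, with its limit of 2, recovered 200, with 3 false calls among 8010 genes tested. Recovery at ratios between 2 and 4 was not tested. Python 3.11.15, numpy 2.4.6, scipy 1.17.1 and pandas 2.3.3 were used.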

Additional observations from a re-analysis of the deposited data

How the results depend on the processing

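No paired analysis was possible because there is 1 library in each group. The share of dual cells, 2.36%, was 1.27% at a 2C limit of 0.2%, 1.70% without the Zscan4 family in the rule, 1.75% among cells of at least 20000 UMIs, 1.41% at an endoderm limit of 0.06%, 0.545% without Dab2 in the rule and 2.88% after thinning. The 321 genes higher than in 2C-only cells became 515 with TMM, 507 at a filter of 1 CPM and 45 at a ratio of 4. The 794 lower genes became 1392 at the 2C limit of 0.2%, 444 with TMM, 2106 at 1 CPM and 98 at a ratio of 4. The 421 genes higher than in endoderm-only cells became 831 at 1 CPM and 259 at a ratio of 4. The 605 lower genes became 1467 at the 2C limit of 0.2%, 1016 without the Zscan4 family, 315 with TMM, 1516 at 1 CPM and 40 at a ratio of 4. The 141 genes above both became 50 without Dab2 in the rule, of which 22 were shared, 64 in the same 24 cells against the unaltered single classes (added after the values were seen), of which 34 were shared, and 4 at a ratio of 4. With TMM all 141 were among 203. The 125 genes below both became 577 at the 2C limit of 0.2%, 323 without the Zscan4 family, 39 with TMM, 460 at 1 CPM, 226 at the endoderm limit of 0.06%, 213 without Dab2, 226 in the 24 cells against the unaltered classes, 196 with the mean of cell CPM, 193 with a pseudocount of 0.1, 0 at a ratio of 4, 229 after thinning and 193 without cells above 2 times the median UMIs. The median position of 2C genes, 0.27, was 0.38 at 1 CPM, and that of endoderm genes, 0.55, was 0.48 at the 2C limit of 0.2%, 0.65 with TMM and 0.66 in the 24 cells against the unaltered classes. Without Dab2 in the rule, where 24 dual cells remain and the other 80 join the 2C-only class, the log2 ratio to 2C-only cells turned to -0.0024 for Olfr815 and -0.62 for Gm48155, and was 0.96 for Lmx1a and 0.28 for Sp140. Against the unaltered 2C-only class these were 0.14, -0.044, 1.25 and 0.52. Fewer cells, changed comparison classes and fewer or more genes tested are part of these settings, and other causes were not tested. A further 88 values of these counts, shares and positions stayed within 1.5 times or their interval, and 4449 values of single genes kept their direction and their side of the limit, with 108 passing it and 116 falling short. Of the list medians 559 stayed within their interval and 99 did not. Leaving out cells marked by Scrublet or over 5% mitochondrial UMIs left each of the counts named here within 1.5 times. The first filter took out 0 dual cells and the second 1, so this says little about doublets or cell quality. The main limits are the single library, the small number of dual cells, the unremoved doublets and genes at few UMIs.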

Other observations

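Genes of the cell state outside the 2C and endoderm programmes were mostly within a ratio of 2, as were most of all genes tested. Of 86 ribosomal protein genes 0 were higher and 1 lower than in 2C-only cells and 0 were called against endoderm-only cells, yet as a sum they took 26.4% of UMIs in dual cells, against 23.0% in 2C-only and 23.3% in endoderm-only cells. Of 30 S phase genes 6 were lower and 0 higher than in 2C-only cells, beside 9.85% and 3.98% of all genes, with a median of -0.75, and 3 were lower than in endoderm-only cells, near the 7.63% of all genes, with a median of -0.63, beside -0.23 and -0.31 over all genes. The summed S phase share was 0.158% in dual, 0.252% in 2C-only, 0.231% in endoderm-only and 0.315% in neither cells. Of 52 G2/M genes 5 were lower than in 2C-only cells and 0 higher, a share of lower genes near that of all genes, with a median of -0.55. Of 15 lysosomal genes 4 were higher than in 2C-only cells, beside 3.98% of all genes, and 1 lower, with a median of 0.46, and 0 of 16 were called against endoderm-only cells. The 4 were the membrane protein Lamp1 at 432, 208 and 480 CPM in dual, 2C-only and endoderm-only cells, the cholesterol carrier Npc2 at 212, 100.3 and 218, Ctsa and Hexa. Of 15 glycolysis genes 1 was lower and 0 higher in each comparison, a share of lower genes near the 9.85% and 7.63% of all genes. Of 11 mitochondrially encoded genes 0 were called in either. Depth was varied only through the alternative settings of thinning and of at least 20000 UMIs, and its part in these values was not separated.

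Of 12 heat shock genes 2 were lower and 0 higher than in 2C-only cells, beside 9.85% and 3.98% of all genes, with a median of -0.13, and 0 of 10 were called against endoderm-only cells. The 2 reached 10 CPM in 2C-only cells alone. One was the inducible chaperone Hspa1a (chr17:34969190-34972156), which stood at 3.96 CPM in dual, 40.2 in 2C-only, 2.57 in endoderm-only and 4.48 in neither cells, while its constitutive relative Hspa8 stood at 1006, 927, 734 and 709 CPM. In the list of integrated stress and unfolded protein response genes, 0 of 12 were called against 2C-only cells, with a median of 0.53, and 2 of 14 were higher and 3 lower than in endoderm-only cells, beside 5.31% and 7.63% of all genes, with a median of -0.35. Of the 3, 2 reached 10 CPM in endoderm-only cells alone, and of the 12 at 10 CPM in both classes 2 were higher and 1 lower. Of endoplasmic reticulum proteins, the chaperone Hspa5 stood at 602, 312 and 891 CPM and the calcium-binding Calr at 757, 387 and 966 CPM in dual, 2C-only and endoderm-only cells. None of 15 p53 targets was called in either comparison, with medians of -0.36 and -0.15; the second turned to 0.07 with TMM. Of the list of primed pluripotency genes 1 of 4 was higher and 2 lower than in 2C-only cells, with a median of -1.33. The shares over all genes were 3.98% and 9.85%. Both of 2 tested were lower than in endoderm-only cells, beside 7.63% of all genes. The one higher than in 2C-only cells was the DNA methyltransferase Dnmt3b, at 148, 38.4, 353 and 34.9 CPM in dual, 2C-only, endoderm-only and neither cells. The 2 lower than in 2C-only cells, the transcription factors Sox3 at 5.94 against 36.7 CPM and Pou3f1 at 2.77 against 21.8, reached 10 CPM in 2C-only cells alone. Dnmt3a stood at 37.6, 43.7 and 90.9 CPM in dual, 2C-only and endoderm-only cells. Of FGF and ERK pathway genes the receptor Fgfr2, one of those that bind Fgf4, stood at 8.71, 6.65 and 23.8 CPM in dual, 2C-only and endoderm-only cells, and the phosphatase Dusp4 at 95.8, 25.7 and 185 CPM. In all, 1 of 10 genes of this pathway was higher and 1 lower than in 2C-only cells, beside 3.98% and 9.85% of all genes. Against endoderm-only cells 4 of 12 were lower, beside 7.63%, and 0 higher, or 2 of the 6 at 10 CPM in both classes.

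Igfbp2, a binding protein for insulin-like growth factors that was chosen after its values were seen, differed across cells above the 2C limit, at 1170.5 CPM with no endoderm UMIs and 139 CPM above an endoderm share of 0.12%. In the 75 2C-only cells with high matrix share it stood at 366 CPM, against 1201 in the other 843.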
